A study of Mus musculus with 16 samples.

Results

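*Pitx1*, *Pitx3*, *Otx1*, *Otx2* and *Gsc* encode paired-like homeodomain transcription factors, and their signals were compared between the tooth germs of mouse embryos. Each of the 5 genes was read from the probe set that carried its symbol alone, and each had 1 such probe set, among 19938 genes with a probe set of a single symbol. The samples were mandibular first molars (n = 8), maxillary first molars (n = 4) and lower incisors (n = 4), microdissected at E14.5 from C57Bl6 embryos with no mutation or treatment named. Each sample was RNA of 4 pooled germs on 1 Affymetrix Mouse Gene 1.0 ST array, so single animals cannot be seen, and the sources used here do not tie a pool to a litter. The study asked which genes set molars apart from incisors, and mandibular apart from maxillary molars. It listed *Pitx1*, *Otx1* and *Gsc* for mandibular against maxillary molars, and *Otx1* also for mandibular molars against incisors. These genes were picked from these same samples, so those differences are not independent evidence. Between the jaws the study placed all of them among its genes past the stricter of its fold cutoffs. The folds found here between the jaws fell short of that cutoff, for a reason that was not tested. For *Pitx1* and *Gsc* the study reported no significant difference between lower incisors and mandibular molars.

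The 5 proteins share a lysine in the DNA recognition helix of the homeodomain, as does the Drosophila protein bicoid, and bind sites with the core TAATCC. *Pitx1* marks the oral ectoderm and the mandibular arch and is best known for hindlimb identity. *Gsc* acts in the organizer of the early embryo and later in the mandibular arch, downstream of endothelin 1 and the Dlx factors. *Otx1* and *Otx2* pattern the anterior head, and *Pitx3* is known from the lens and from dopaminergic neurons of the midbrain.

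Values are log2 signals after RMA, in which a step of 1 is a doubling, and levels of different genes are not compared. Differences were tested with limma on the compared samples alone, among probe sets above 5 in at least 1 of them, with Benjamini-Hochberg adjustment. The threshold was an adjusted p below 0.1 together with a fold above 1.2, and genes past both are said to have passed. Log2 differences, or log2 fold changes, are the mean of the tooth type named first minus that of the second, with the standard error as SE. Nothing says that the pools came from separate litters, so the p-values reflect only the scatter of these arrays, which may be technical in part. Across 29356 probe sets, mandibular molars 5 to 8 correlated with the maxillary molars at a median of 0.9916 and with mandibular molars 1 to 4 at 0.9845, and the lower incisors correlated at 0.9851 with mandibular molars 1 to 4 and at 0.9785 with 5 to 8. The lower incisors with mandibular molars 1 to 4 are treated here as one sample set, and the maxillary molars with mandibular molars 5 to 8 as the other. No label names these sets, and the place of the incisors rests on small gaps in correlation, so the fits with the sample set as a block depend on a grouping taken from the data. These fits set the incisors against mandibular molars 1 to 4 and the maxillary molars against 5 to 8. Their fold changes are those of these samples alone, with the variance taken over all samples. The maxillary molars and the incisors are compared there only through the mandibular molars. All 11 measured markers of dental and oral epithelium and all 11 of dental mesenchyme lay above 5 in every sample. In whole germs, fewer cells of a type and less RNA per cell cannot be told apart.

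The promoter sequences of 2 of the genes are shown because *Gsc* separated the maxillary molars from both tooth types of the lower jaw, and because 1 of the 4 *Otx2* windows was the only member window with the bicoid-type site. RefSeq windows of 300 bases, 250 before and 50 after a transcript start (GRCm38.p6), were found for *Pitx3*, *Otx2* and *Gsc*. They were searched on both strands for TAATCC, for the paired-type core TAATTA and for TATAAA, which occurred in 7.06%, 5.29% and 13.6% of 32851 such windows. Matches are in capitals.
Gsc: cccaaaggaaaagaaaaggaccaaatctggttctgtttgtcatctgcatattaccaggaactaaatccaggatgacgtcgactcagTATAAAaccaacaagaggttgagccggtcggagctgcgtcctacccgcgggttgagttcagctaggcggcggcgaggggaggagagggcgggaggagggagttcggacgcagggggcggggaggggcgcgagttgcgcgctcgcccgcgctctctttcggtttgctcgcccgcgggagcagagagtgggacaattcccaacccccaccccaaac
Otx2: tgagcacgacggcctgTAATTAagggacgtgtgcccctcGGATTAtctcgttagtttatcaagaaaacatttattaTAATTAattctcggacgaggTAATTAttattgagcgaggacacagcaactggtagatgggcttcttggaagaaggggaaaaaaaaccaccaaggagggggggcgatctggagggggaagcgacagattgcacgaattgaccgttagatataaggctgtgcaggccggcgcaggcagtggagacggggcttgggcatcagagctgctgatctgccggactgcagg
The *Gsc* window lies at chr12:104473187-104473486 on the minus strand. It held 60.3% G and C, 25 CpG dinucleotides and 1 TATAAA, and neither homeodomain motif. The *Otx2* window lies at chr14:48665060-48665359 on the minus strand and held 3 copies of TAATTA and 1 of TAATCC, read as GGATTA on the printed strand. The *Pitx3* window held none of the motifs, with 71.7% G and C. A match is a description of the letters in the window and not evidence of binding.

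*Pitx1* was the member with its highest signals in mandibular molars. Its log2 signal in mandibular molars had a lowest value of 10.65, a median of 10.94 and a highest value of 11.33. It was 9.79, 9.96, 10.14 and 10.22 in the maxillary molars and 10.08, 10.68, 10.41 and 10.57 in the lower incisors. Every mandibular molar lay above every maxillary molar, and 7 of the 8 mandibular molars lay above every incisor. The mean was 10.97 ± 0.25 in mandibular molars, 10.03 ± 0.19 in maxillary molars and 10.44 ± 0.26 in incisors (SD). *Pitx1* was 1.92-fold higher in mandibular than in maxillary molars (log2 difference 0.94, SE 0.13, 95% interval 0.66 to 1.23, adjusted p = 0.00357, limma). Against the incisors it was 1.45-fold higher in mandibular molars (log2 difference 0.53, SE 0.14, 95% interval 0.23 to 0.84, adjusted p = 0.065, limma). The study, which left out 1 incisor sample, reported no significant *Pitx1* difference there. The maxillary molars overlapped the incisors, and *Pitx1* was lower in maxillary molars by a log2 fold change of -0.41 (SE 0.14, adjusted p = 0.0608, limma). With the sample set as a block, a fit chosen after seeing the data, *Pitx1* was higher in mandibular molars by 0.74 against incisors (adjusted p = 0.00213) and by 0.73 against maxillary molars (adjusted p = 0.0105). In the same fit the difference of the maxillary molars from the incisors was 0.01 (SE 0.17, adjusted p = 0.993). Fitted with mandibular molars 1 to 4 only, the value against incisors was also 0.74 (adjusted p = 0.0368, limma). With 5 to 8 only, that against maxillary molars was also 0.73 (adjusted p = 0.0189, limma). The call between mandibular molars and incisors was lost without mandibular molar 1 (adjusted p = 0.104), incisor 1 (adjusted p = 0.205) or incisor 3 (adjusted p = 0.173). It was also lost by the methods' t-test (adjusted p = 0.113), after quantile normalization (0.114) or cyclic loess (0.116), and with mandibular molars 5 to 8 only (0.101). Between maxillary molars and incisors it was lost without maxillary molar 1 or 2 or incisor 2 or 3, with adjusted p of 0.107 to 0.147.

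The mean signal of the dental and oral epithelium markers was 9.83 to 10.55 in mandibular molars, 10.08 to 10.45 in maxillary molars and 9.98 to 10.22 in incisors. These ranges overlapped. Of the 11 markers 1 was higher in mandibular molars than in incisors, and between the jaws 0 passed by limma, with 3 higher at an unadjusted p under 0.05. The mesenchyme markers had mean signals of 9.98 to 10.34 in mandibular molars, 10.35 to 10.43 in maxillary molars and 9.86 to 10.09 in incisors. Of these 11 markers 3 were higher in mandibular molars than in incisors, *Lhx6* (log2 difference 2.24), *Pax9* (1.14) and *Lhx8* (0.38). The study itself listed *Lhx6* and *Lhx8* as enriched in molars. The median of the list was 0.04 there, against -0.02 for all probe sets tested. Between the jaws 1 of the 11 was higher and 2 lower in mandibular molars. Between maxillary molars and incisors, 5 of the 11 epithelium markers were higher and 1 lower in maxillary molars. Of the 11 mesenchyme markers 6 were higher and 1 lower there, against 14.4% higher and 13.4% lower of all probe sets tested. Skeletal muscle markers moved in the directions in which *Pitx1* passed between the jaws and between maxillary molars and incisors. Between mandibular molars and incisors they went the other way from *Pitx1*, with 5 of 12 lower in mandibular molars and 0 higher. The muscle values are given beside *Gsc*. The part of epithelium, mesenchyme or muscle in the *Pitx1* differences was not tested.

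**Figure D1:**
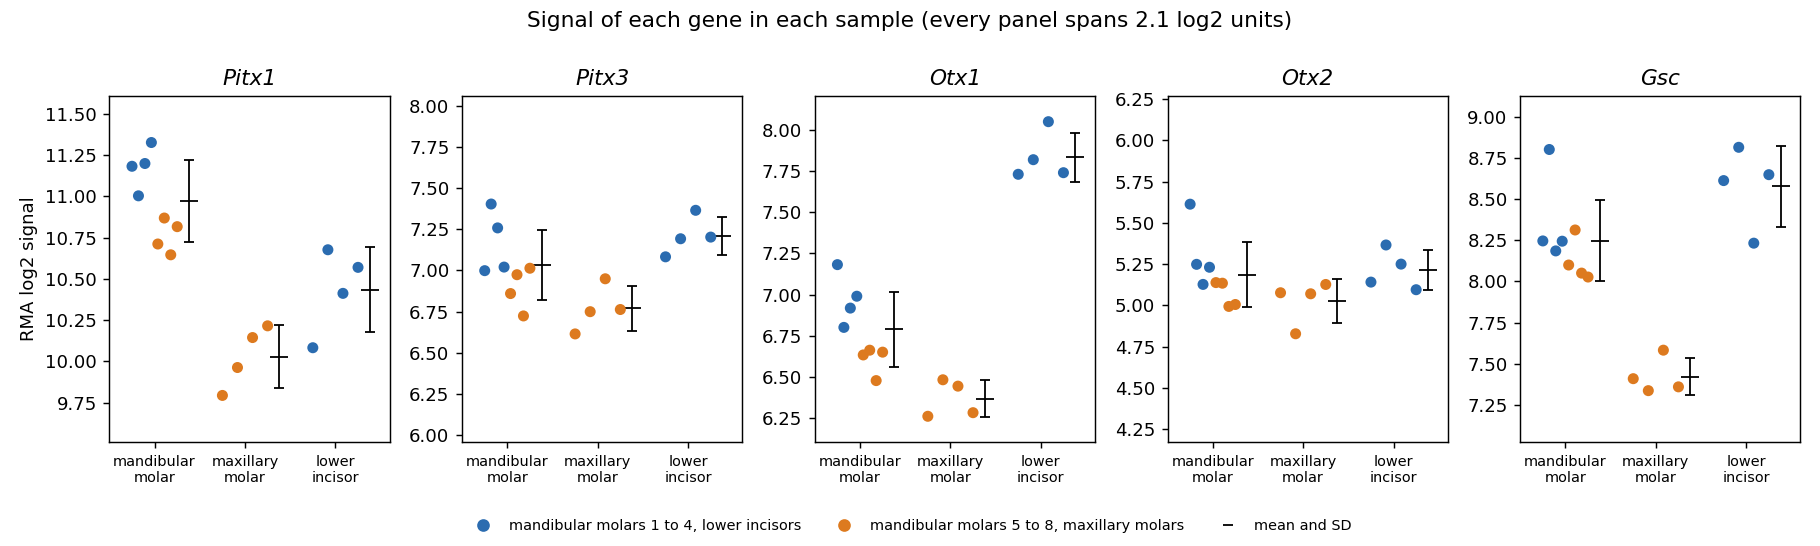
RMA log2 signal (vertical axis) of each of the 5 genes in every sample (points) of mandibular molars, maxillary molars and lower incisors, with the mean and SD beside each group and colours for the sample sets. Pitx1 is highest in mandibular molars, Otx1 is highest in incisors and Gsc is lowest in maxillary molars, while Otx2 lies near 5 in every group.

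*Pitx3* varied little between the tooth types. Its log2 signal in mandibular molars had a lowest value of 6.72, a median of 7.01 and a highest value of 7.40. It was 6.61, 6.75, 6.95 and 6.76 in the maxillary molars and 7.08, 7.19, 7.36 and 7.20 in the incisors. The incisors all lay above the maxillary molars, and the mandibular molars overlapped both. *Pitx3* passed only between the maxillary molars and the incisors, with a log2 fold change of -0.44 (SE 0.09, adjusted p = 0.00912, limma), which shrank to -0.16 (adjusted p = 0.731) with the sample set as a block. The log2 fold change of mandibular molars was -0.18 against incisors (95% interval -0.42 to 0.06, adjusted p = 0.397) and 0.26 against maxillary molars (95% interval 0.02 to 0.50, adjusted p = 0.268). The last bases of *Pitx3* overlap those of the neighbouring gene *Elovl3* in the RefSeq annotation. The probe set of *Elovl3*, a fatty acid elongase, stayed under 5 in all compared samples.

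*Otx1* was the member with its highest signals in the lower incisors. Its log2 signal in mandibular molars had a lowest value of 6.48, a median of 6.73 and a highest value of 7.18. It was 6.26, 6.48, 6.45 and 6.28 in the maxillary molars and 7.73, 7.82, 8.05 and 7.74 in the incisors. Every incisor lay above every molar of either jaw. *Otx1* was 2.06-fold lower in mandibular molars than in incisors (log2 difference -1.04, SE 0.12, 95% interval -1.30 to -0.78, adjusted p = 0.000291, limma). It was 2.76-fold lower in maxillary molars than in incisors (log2 difference -1.47, SE 0.09, adjusted p = 5.35e-05, limma). With the sample set as a block these values were -0.86 (adjusted p = 4.58e-05) and -1.10 (adjusted p = 0.000191). Between the jaws 7 of the 8 mandibular molars lay above every maxillary molar. The log2 fold change of 0.42 (SE 0.12, 95% interval 0.17 to 0.67) did not pass, at an adjusted p of 0.109. It passed without mandibular molar 7 (adjusted p = 0.0561), among probe sets above 6 (0.0974), with array weights (0.0673), with 1 probe set per gene (0.0504) and with all 3 tooth types in 1 fit (0.0755). It also passed in the fits that rest on mandibular molars 1 to 4, at 0.60 (adjusted p = 0.00578 for these samples alone, 0.0283 with the replicate number as a block). With the sample set as a block it was 0.24 (adjusted p = 0.457).

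Markers of cartilage and of keratinizing epithelium moved with *Otx1* between the mandibular molars and the incisors. Of 10 cartilage markers 9 were lower in mandibular molars, and the mean signal of the list was 7.16 to 7.33 in mandibular molars and 7.50 to 8.53 in incisors. Of 10 markers of keratinizing epithelium 4 were lower in mandibular molars, with list means of 6.62 to 7.73 in mandibular molars and 7.47 to 7.92 in incisors. The neuronal list had means of 6.72 to 7.16 in mandibular molars and 7.23 to 7.41 in incisors. Of its 10 markers 3 were lower and 1 higher in mandibular molars. The median log2 fold change of the list was -0.06, against -0.02 for all probe sets tested. The 3 lower markers were *Isl1* (-2.33), *Stmn2* (-1.78) and *Gap43* (-0.45), and the higher one was *Nefl* (1.42). *Isl1* is also a gene that the study listed as enriched in incisors. The part of these tissues in the *Otx1* difference was not tested.

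*Otx2* lay at the edge of the filter, above 5 in 14 of the 16 samples. Its log2 signal in mandibular molars had a lowest value of 4.99, a median of 5.14 and a highest value of 5.61. It was 5.08, 4.83, 5.07 and 5.13 in the maxillary molars and 5.14, 5.37, 5.25 and 5.09 in the incisors. The 3 groups overlapped and no comparison passed. The log2 fold change of mandibular molars was -0.03 against incisors (95% interval -0.25 to 0.20, adjusted p = 0.907) and 0.16 against maxillary molars (95% interval -0.06 to 0.39, adjusted p = 0.414). That of the maxillary molars against the incisors was -0.19 (95% interval -0.39 to 0.01, adjusted p = 0.138). The sign of the first of these values turned under several other settings.

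*Gsc* stood apart by its low signals in the maxillary molars. Its log2 signal in mandibular molars had a lowest value of 8.03, a median of 8.21 and a highest value of 8.80. It was 7.41, 7.34, 7.58 and 7.36 in the maxillary molars and 8.61, 8.81, 8.23 and 8.65 in the incisors. Every maxillary molar lay below every sample of the lower jaw, while the mandibular molars overlapped the incisors. *Gsc* was 1.77-fold higher in mandibular than in maxillary molars (log2 difference 0.82, SE 0.12, 95% interval 0.56 to 1.09, adjusted p = 0.00524, limma). It was 2.22-fold lower in maxillary molars than in incisors (log2 difference -1.15, SE 0.12, adjusted p = 0.000594, limma). With the sample set as a block these values were 0.70 (adjusted p = 0.0315) and -0.91 (adjusted p = 0.0232). Mandibular molars differed from incisors by -0.33 (SE 0.14, 95% interval -0.63 to -0.03), which did not pass at an adjusted p of 0.233. Without mandibular molar 2, the sample with the highest *Gsc* signal among the molars, the value was -0.41 and passed (adjusted p = 0.0387).

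Skeletal muscle markers moved in the same order as *Gsc*. All 12 markers were measured and lay above 5 in every sample, and their mean signal was 7.25 to 8.46 in mandibular molars, 6.55 to 6.95 in maxillary molars and 8.21 to 8.42 in incisors. Of the 12 markers 10 were higher in mandibular than in maxillary molars (11 at an unadjusted p under 0.05), and 5 were lower in mandibular molars than in incisors (9 at an unadjusted p under 0.05). Between maxillary molars and incisors all 12 were lower in the maxillary molars. Mandibular molar 2 had both the highest *Gsc* signal of the mandibular molars, 8.80, and the highest muscle mean, 8.46. The other mandibular molars did not keep the same order. Mandibular molar 8 had the lowest *Gsc* signal, 8.03, with a muscle mean of 7.88, and mandibular molar 6 had 8.31 with 7.36. Within the second sample set the muscle mean was 7.25 to 7.88 in mandibular molars 5 to 8 and 6.55 to 6.95 in maxillary molars. The mean of the neuronal list ran the same way, with 6.72 to 7.16 in mandibular molars, 6.63 to 6.79 in maxillary molars and 7.23 to 7.41 in incisors. Between the jaws these ranges overlapped, and only 2 of the 10 neuronal markers were higher and 1 lower in mandibular molars. The median log2 fold change of that list was 0.04, against 0.02 for all probe sets tested. *Otx1* and *Pitx3* also had their lowest means in the maxillary molars and their highest in the incisors. The part of muscle or nerve in the differences of *Gsc*, *Otx1*, *Pitx3* and *Pitx1* was not tested.

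**Figure D2:**
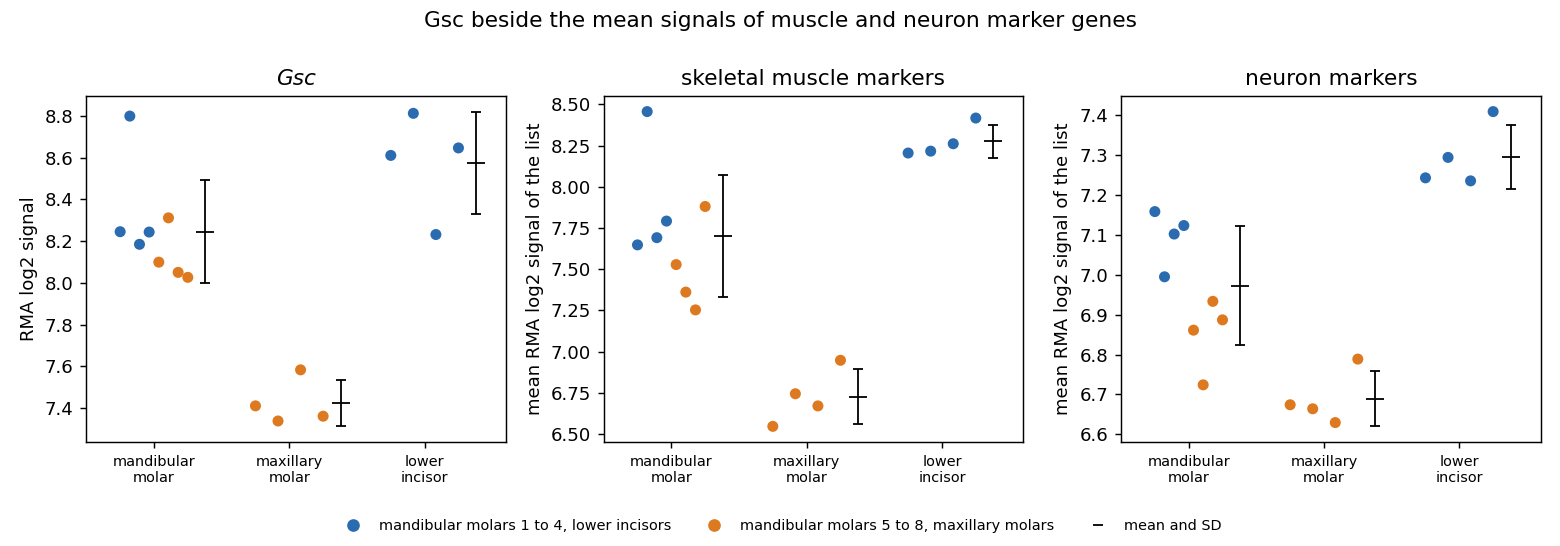
Log2 signal of Gsc and mean log2 signals of 12 skeletal muscle and 10 neuron markers (vertical axes, each with its own range) in every sample (points), with the mean and SD of each group. In all 3 panels the maxillary molars are lowest on average and the incisors highest. Mandibular molar 2 leads the mandibular molars for Gsc and for the muscle markers, while the other mandibular molars differ in order between these panels.

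Between mandibular molars and lower incisors, 1 of the 5 genes (*Pitx1*) was higher in mandibular molars and 1 (*Otx1*) was lower. Over all 29258 probe sets tested, 2.75% were higher and 2.18% lower, with a median log2 fold change of -0.02. Between mandibular and maxillary molars, 2 of the 5 (*Pitx1* and *Gsc*) were higher in mandibular molars, against 1.01% of 29068 probe sets, and 0 were lower, against 1.18%, by limma. At an unadjusted p under 0.05, 4 of the 5 were higher in mandibular than in maxillary molars and none lower, against 9.68% higher and 7.42% lower of all probe sets tested. The methods' t-test passed *Pitx1* and *Gsc* alone in this comparison, and *Otx1* alone between mandibular molars and incisors. The mandibular molar samples are shared by these comparisons. Between maxillary molars and incisors, 4 of the 5 (all but *Otx2*) were lower in maxillary molars and 0 higher, against 13.4% lower and 14.4% higher among 29075 probe sets, by limma. In that comparison the tooth type, the jaw and the sample set differ together. With the sample set as a block 2 of the 5 (*Otx1* and *Gsc*) were lower and 0 higher, against 440 lower and 451 higher of the 29075 probe sets.

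The order of levels over the tooth types thus differed from gene to gene. *Pitx1* ran from maxillary molars through incisors to mandibular molars, and the first step of that order did not pass with the sample set as a block. *Otx1*, *Gsc* and *Pitx3* ran from maxillary molars through mandibular molars to incisors. The step between the molar types did not pass for *Otx1*, that between the lower jaw teeth did not pass for *Gsc*, and neither passed for *Pitx3*.

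**Figure D3:**
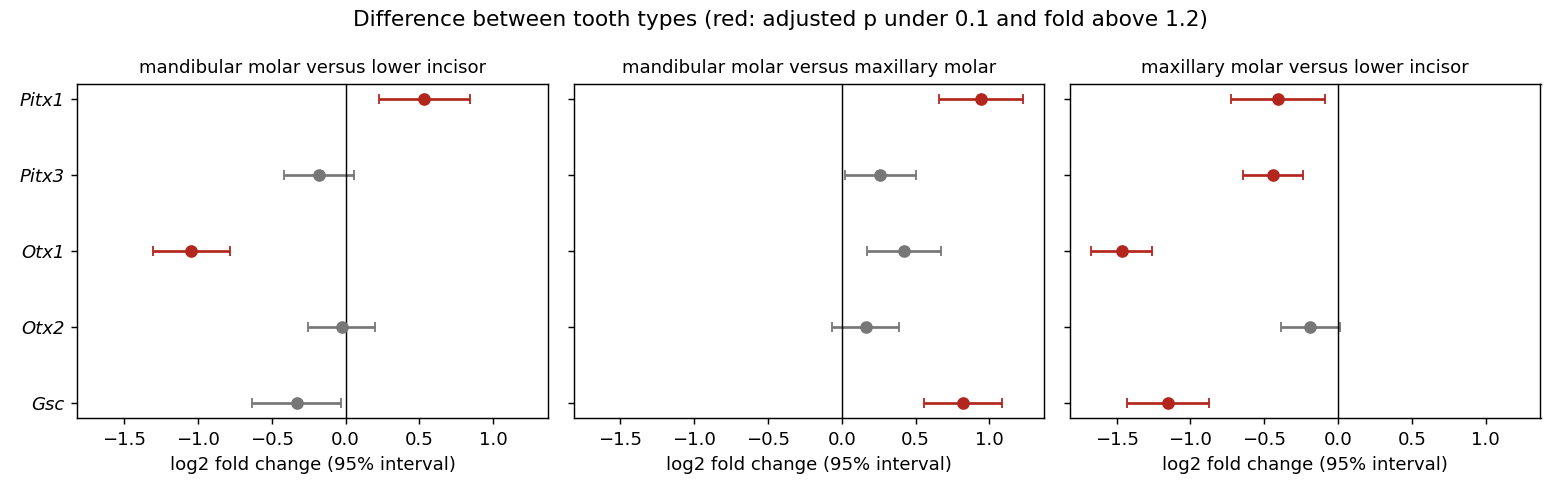
Log2 fold change (horizontal axis, point) with its 95% interval (bar) of each gene in the 3 comparisons of tooth types, with genes that passed in red. Pitx1 lies at 0.53 and 0.94 in the comparisons of mandibular molars, Otx1 at -1.04 against incisors, and Gsc at 0.82 against maxillary molars.

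Within the mandibular molars the genes also differed between the sample sets. *Pitx1* averaged 11.18 ± 0.13 in samples 1 to 4 and 10.76 ± 0.10 in samples 5 to 8 (SD, n = 4 each), with no overlap (log2 difference 0.42, SE 0.08, adjusted p = 0.0248, limma). *Otx1* was 6.97 ± 0.16 in 1 to 4 and 6.61 ± 0.09 in 5 to 8, again with no overlap (log2 difference 0.37, SE 0.09, adjusted p = 0.0426, limma), and it did not pass without mandibular molar 7 (adjusted p = 0.102). These 2 of the 5 genes passed as higher in mandibular molars 1 to 4 and none passed as lower, against 4.49% higher and 7.29% lower among 28936 probe sets, by limma. *Pitx3*, *Otx2* and *Gsc* had log2 fold changes of 0.28, 0.24 and 0.25 with adjusted p of 0.146, 0.191 and 0.299. Against the incisors, mandibular molars 5 to 8 alone gave -0.32 for *Pitx3* (adjusted p = 0.0378), -0.45 for *Gsc* (adjusted p = 0.0386) and 0.33 for *Pitx1* (adjusted p = 0.101). Against the maxillary molars, mandibular molars 1 to 4 alone gave 0.60 for *Otx1* (adjusted p = 0.00578) and 0.40 for *Pitx3* (adjusted p = 0.0394). In both of these comparisons the sample sets and the tooth types cannot be told apart.

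The endothelin 1 and Dlx pathway, which gives the lower jaw its identity and lies upstream of *Gsc* in the mandibular arch, differed at few of its 16 measured genes between the jaws. Only *Dlx6*, a homeobox gene of the lower jaw, was higher in mandibular molars, with 9.14 in mandibular and 7.71 in maxillary molars (log2 difference 1.43, SE 0.12, adjusted p = 8.18e-05, limma). *Dlx1*, a Dlx gene of both jaws, was lower in mandibular molars (log2 difference -0.38, adjusted p = 0.00211). The median of the list was -0.01, against 0.02 for all probe sets tested. Between mandibular molars and incisors 3 of the 16 were higher in mandibular molars and 2 lower. *Barx1*, a homeobox gene of molar mesenchyme, was higher by 3.06 and *Dlx1* by 1.40, while *Hand2*, a gene of the distal lower jaw, was lower with a log2 fold change of -3.65 and *Hand1* with -1.12.

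Of 13 tested genes known as targets of Pitx factors in other tissues, 1 was higher and 2 lower in mandibular than in maxillary molars. *Tbx4*, a hindlimb T-box gene activated by *Pitx1*, was 7.15 in mandibular and 6.77 in maxillary molars (log2 difference 0.38, SE 0.08, adjusted p = 0.0428, limma). *Aldh1a1*, a retinoic acid enzyme regulated by *Pitx3* in midbrain neurons, was lower in mandibular molars (log2 difference -0.76, adjusted p = 0.00106), as was the monoamine transporter gene *Slc18a2* (log2 difference -0.40, adjusted p = 0.0203). Against the incisors *Tbx4* went the other way from *Pitx1*, with 7.15 in mandibular molars and 7.80 in incisors (log2 difference -0.64, adjusted p = 0.00339). In that comparison *Dlx2* was higher in mandibular molars by 0.62 (adjusted p = 0.0993), and *Slc18a2* was lower, with a log2 fold change of -0.31 (adjusted p = 0.0139). Of 6 tested targets of Otx factors, known from eye, pigment cells and brain, 0 passed by limma in the comparisons of tooth types. At an unadjusted p under 0.05, 1 was higher and 1 lower in mandibular than in maxillary molars, and 0 differed between mandibular molars and incisors.

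Among the other paired-class homeobox genes, 22 of 29 had a probe set of a single symbol and 21 were tested. Between mandibular molars and incisors 1 was higher and 4 lower in mandibular molars, with a list median of -0.10. *Shox2*, a homeobox gene of limb and palate, was higher by 1.71 in mandibular molars. *Alx1* and *Alx4*, aristaless-like genes of the frontonasal mesenchyme, and *Pax3*, a gene of neural crest and muscle precursors, were lower, with log2 fold changes of -4.41, -2.53 and -3.66. Between mandibular and maxillary molars *Alx1* alone passed, with a log2 fold change of -1.68 (adjusted p = 5.99e-06, limma), and the list median was 0.09. None of the list passed as higher in mandibular than in maxillary molars, and 4 were higher at an unadjusted p under 0.05.

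**Figure D4:**
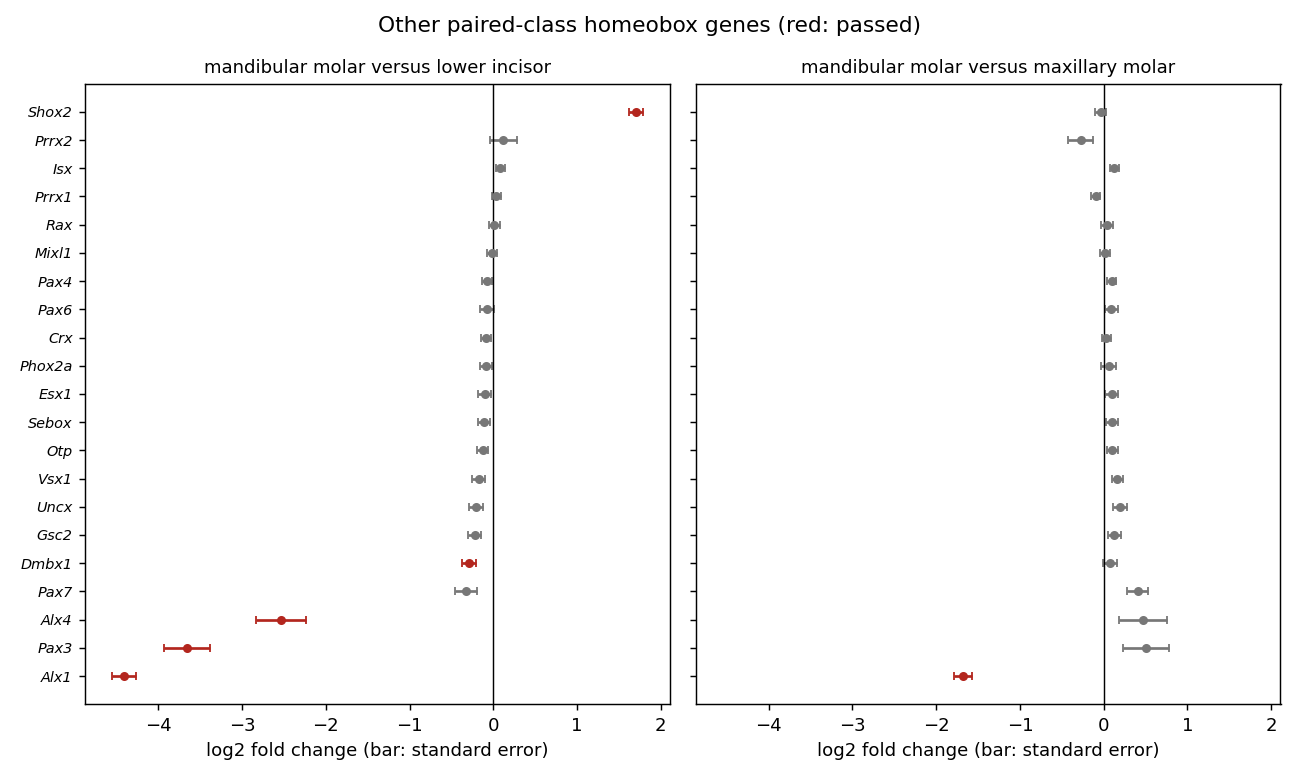
Log2 fold change (horizontal axis, point) with its SE (bar) of the 21 other paired-class homeobox genes tested, for mandibular molars against incisors (left) and against maxillary molars (right), with genes that passed in red. Alx1, Pax3 and Alx4 lie far below 0 against incisors and Shox2 above, while against maxillary molars only Alx1 is red.

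The genes next to the 5 members mostly did not move with them. Of the 10 nearest protein-coding genes 8 were tested, and 0 passed between mandibular and maxillary molars by limma, where *Pitx1* and *Gsc* passed. At an unadjusted p under 0.05, 2 of the 8 were called there, *Tmem260* and *Exoc5*, which flank *Otx2*. *Macroh2a1*, a histone variant gene beside *Pitx1*, differed by 0.07 on the log2 scale (SE 0.06) between the jaws, and *Dicer1*, the microRNA-processing enzyme gene beside *Gsc*, by -0.07 (SE 0.07). *Serpina3n*, a serine protease inhibitor gene on the other side of *Gsc*, was lower in mandibular molars than in incisors (log2 difference -0.60, adjusted p = 0.0815) and was -0.03 between the jaws (adjusted p = 0.781).

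The genes most like the members that passed were taken as those with the smallest root-mean-square difference between centred log2 profiles over the 16 samples, among 16767 genes. For *Pitx1*, whose own profile had a root-mean-square deviation of 0.451, these were *Corin* (0.16), which encodes a serine protease, *Fibin* (0.17) and *Clrn1* (0.203). *Corin* averaged 8.41 in mandibular molars, 7.46 in maxillary molars and 8.09 in incisors. For *Otx1* they were the zinc finger gene *Glis3* (0.181), *Stum* (0.188) and the synaptotagmin gene *Syt17* (0.189). *Glis3* averaged 8.57 in mandibular molars, 8.40 in maxillary molars and 9.69 in incisors. For *Gsc*, with 0.471, they were *Tnnt3* (0.215), which encodes fast skeletal troponin T and is on the muscle list above, *Fitm1* (0.217) and *Pxdc1* (0.22). *Tnnt3* averaged 8.23 in mandibular molars, 7.47 in maxillary molars and 8.40 in incisors. These likenesses are descriptions over samples that share the tooth types and the sample sets.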

How the data were processed

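Total RNA of 16 pools of 4 tooth germs was hybridized to Affymetrix Mouse Gene 1.0 ST arrays. The authors deposited log2 signals of 35556 probe sets made by RMA (background correction, quantile normalization, median polish) in Affymetrix Expression Console 1.1, as the submitters' processing notes state. These values were used without further normalization. A single gene symbol was given for 21789 of them, several for 1621 and none for 12146. Probe sets above 5 in at least 1 compared sample were fitted with limma 3.58.1 (lmFit, then eBayes; R 4.3.3), with adjustment over all of them. The methods state that an incisor sample was discarded for high background after a technical problem in hybridization. They do not name it, so all 4 were used, and the incisor comparisons here include that sample. The members, gene lists and tests were chosen with earlier results of these data known. Genes of a list were named if among the first 4 that passed, by adjusted p, and neighbours by position. Alternatives were other filters, normalizations, fold thresholds, tests and sample choices, each sample left out, and a replicate block. The procedure was tested on simulated data. Arrays hold no read depth, and their number limits the precision.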

Additional observations from a re-analysis of the deposited data

Results flagged for a closer look

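In 2 of 15 groups of values, 1 sample lay far from the others of its group, at a limit that chance alone passes in about 5% of groups. *Otx2* had 5.61 in mandibular molar 1, above the next mandibular molar at 5.25. *Gsc* had 8.80 in mandibular molar 2, above the next at 8.31.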

How the results depend on the processing

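Of the log2 fold changes of the 5 genes under all alternatives, 312 kept their direction and side of the threshold, 13 lost and 14 gained the call, and 9 turned in sign. Those that turned were *Otx2* in mandibular molars against incisors, at 0.0920 with the replicate block, with the sample set as a block and with mandibular molars 1 to 4 only, 0.0250 with quantile normalization, 0.0264 with cyclic loess and -0.0876 to 0.0244 with a sample left out (0.000946 without mandibular molar 7, 0.0244 without incisor 2), and *Pitx1* and *Otx2* in maxillary molars against incisors, at 0.0110 and 0.0495 with the sample set as a block. The cause was not tested. Between mandibular molars and incisors 2 genes passed. The count was 1 at a fold change above 2, with quantile normalization, with cyclic loess and by the methods' t-test (*Otx1* each time), 1 to 3 with a sample left out, 3 with array weights (*Gsc* added) and 3 with mandibular molars 5 to 8 only (*Pitx3*, *Otx1*, *Gsc*). Between mandibular and maxillary molars the count of 2 was 0 at a fold change above 2, since no fold reached it, 4 with the replicate block and with mandibular molars 1 to 4 only, 3 (*Otx1* added) among probe sets above 6, with array weights, with 1 probe set per gene and with all 3 tooth types in 1 fit, and 2 to 3 with a sample left out. Between maxillary molars and incisors the count of 4 was 2 at a fold change above 2 and with the sample set as a block, and 3 to 4 with a sample left out. Between the mandibular sets 0 passed at a fold change above 2, and 1 to 3 with a sample left out. *Otx1* against incisors and *Pitx1* and *Gsc* between the jaws passed in every alternative at fold 1.2. The study reported larger folds for *Pitx1* and *Gsc* between the jaws, and the cause of that gap was not tested. The numbers in the titles did not pair the samples, with correlations of same-numbered samples of 0.083 to 0.506, 0.00381 to 0.339 and -0.0689 to 0.243. With that replicate block 539 of all probe sets passed between mandibular molars and incisors and 5832 between the jaws, against 1441 and 635 without it. That fit changes the samples too, since numbers 5 to 8 occur in mandibular molars alone and drop out of the contrast, and its counts lie near those with mandibular molars 1 to 4 only. The fit with the sample set as a block likewise compares incisors with mandibular molars 1 to 4 and maxillary molars with 5 to 8. The block fits and the fits on these subsets are therefore not separate checks. Without mandibular molar 2 or incisor 1, 3 or 4 the first count was 2304, 920, 900 and 2267, with array weights 4924, with mandibular molars 1 to 4 only 518 and with 5 to 8 only 6050. Without maxillary molar 1, 2 or 3 the second was 276, 266 and 378, with the sample set as a block 279, with mandibular molars 5 to 8 only 368 and with 1 to 4 only 5533. The third, 8090, was 891 with the sample set as a block. That between the mandibular sets, 3408, was 5316, 2055, 1993 and 2153 without mandibular molar 4, 5, 6 or 8. At a fold change above 2 the 4 counts were 148, 57, 530 and 137. The sample set as a block, the comparisons across sets and all alternatives of the last pair of comparisons were chosen after seeing the data. *Otx2*, near 5 throughout, has little signal over background.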
